A study of Mus musculus with 7 samples.

Results

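The genes described here are the 10 enzymes and regulators of de novo lipogenesis Acly, Acaca, Acacb, Fasn, Scd1, Elovl6, Me1, Srebf1, Mlxipl and Thrsp, chosen by symbol from the 19951 gene targets of the assay. All 10 were on the panel with 1 probe each, and all 10 were among the 13095 genes of the filtered table that were tested. They were measured in 6 regions of formalin-fixed, paraffin-embedded mouse liver with the GeoMx whole transcriptome assay, in which barcoded probes are cut by light from a chosen area of a section and counted by sequencing. The regions were outlined by Albumin staining, and the segment table marks them as CLEC4F negative, CLEC4F being a surface protein of Kupffer cells. The mice were 24 weeks old, and 3 regions came from mice on NCD and 3 from mice on FFD, diets that the labels give by these abbreviations. The comments of the segment table mark all 6 regions as WT, and no transgene or drug is named for either diet. The series text speaks of 3 mice on each diet without saying which region is whose, so the p-values below rest on spread between these regions. In the edgeR test used for single genes, each gene's spread is drawn toward the trend over all tested genes.

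De novo lipogenesis builds fatty acids from the acetyl-CoA that remains when carbohydrate is plentiful. Citrate leaves the mitochondrion and is split to acetyl-CoA by ATP citrate lyase, acetyl-CoA carboxylase adds a carbon to give malonyl-CoA, and fatty acid synthase joins these units to palmitate, which is then elongated and desaturated. In liver the genes of these enzymes are switched on together by SREBP-1c (from Srebf1), which follows insulin, and by ChREBP (from Mlxipl), which follows glucose, so the pathway is a main route by which a sugar-rich diet becomes liver fat.

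The regions held 2069102 to 3491371 counts over the tested genes, and sequencing saturation was 99.1 to 99.3%. Levels are given as CPM, counts scaled to a common library total (edgeR's cpm function) after upper quartile scaling, and were compared between regions for each gene and not between genes, since probes differ in affinity. The detection limit, set at 2 times the negative probe level, lay at 25.5 to 28.0 CPM in the NCD regions and 18.2 to 21.8 CPM in the FFD regions. The FFD regions held fewer nuclei, 1194 ± 102 against 1818 ± 106 (SD, n = 3 each), and counts per deduplicated read were 1.01 to 1.51 in them against 0.996 to 0.997 in the NCD regions. Alb made up 6.48 ± 1.11% of counts in NCD and 3.67 ± 1.10% in FFD regions (exact permutation test p = 0.1, the smallest that 3 against 3 can give). In the fit over all genes 778 genes (5.94%) were higher and 1459 (11.1%) lower in FFD regions at an adjusted p under 0.05 (edgeR quasi-likelihood test), with a median log2 fold change of -0.11. That split depended on the scaling. It was 1138 higher and 893 lower with TMM scaling (median -0.01), 1131 and 894 with DESeq2 size factors, 1129 and 604 with total counts, and 3632 and 206 with scaling to the negative probes (median 0.28).

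The lipogenic genes did not move as a block between the diets. Scd1 rose 2.83-fold in FFD regions and Mlxipl fell by 0.58 on the log2 scale, and the other 8 did not pass the test. The 1 member that rose stands against 5.94% of all tested genes and the 1 that fell against 11.1%, so a single call in either direction is near the background for 10 genes. Of the 10 log2 fold changes 8 were negative, against 62.9% of all tested genes, and their median was -0.35 against -0.11. In 2 members, again Scd1 and Mlxipl, the regions of the diets did not overlap, against 36.7% of all tested genes.

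**Figure D1:**
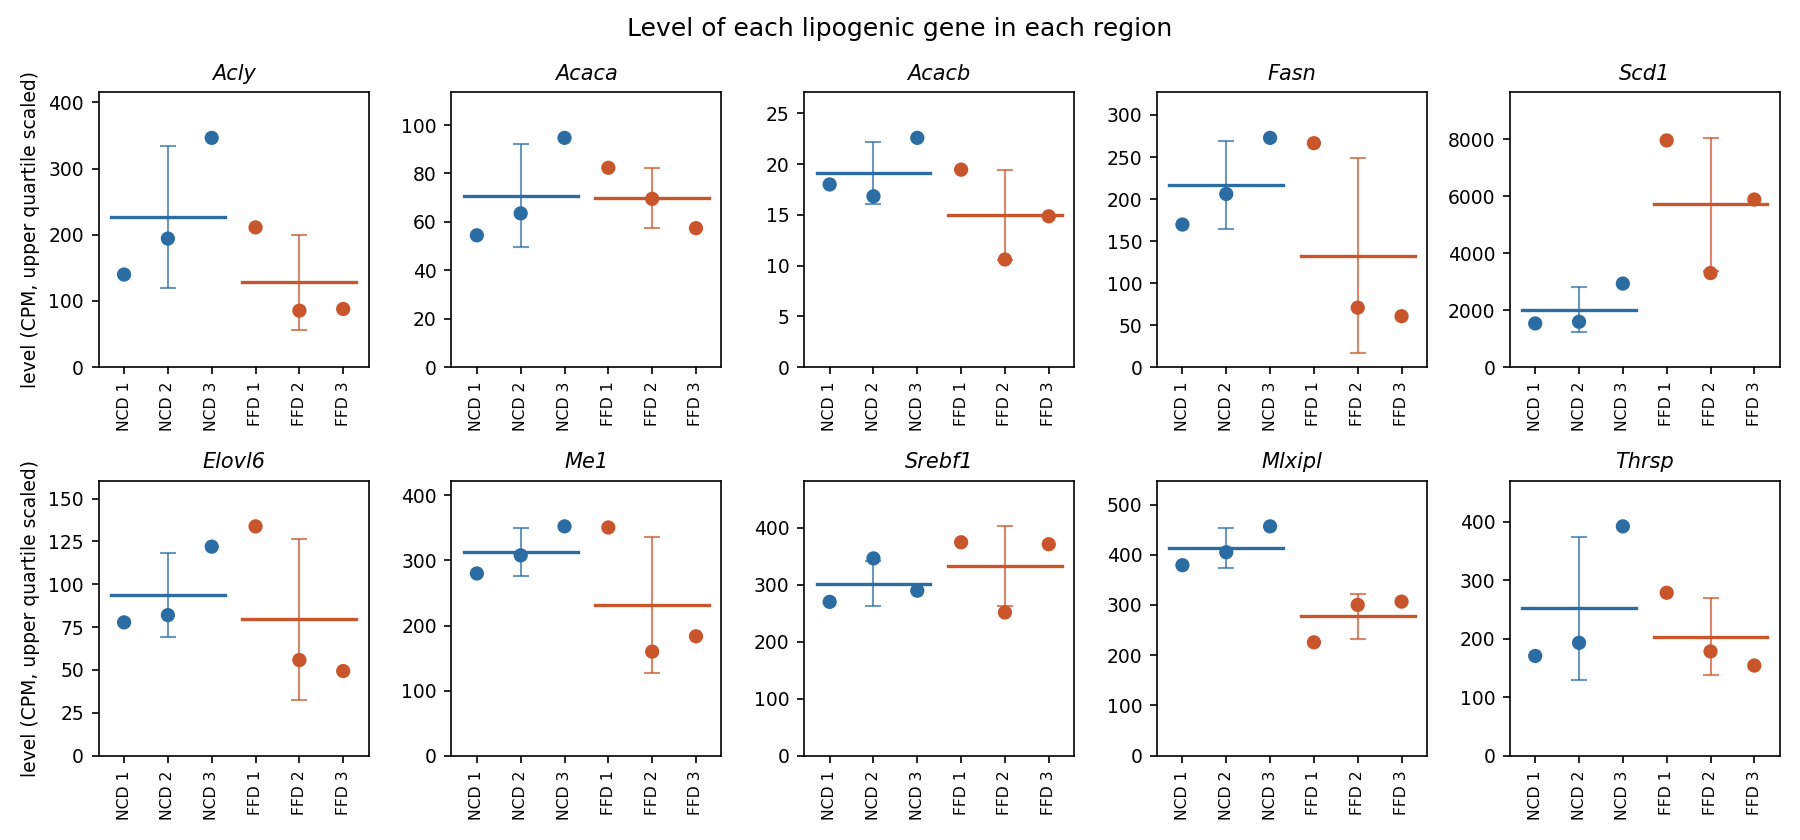
Level of each lipogenic gene in each of the 6 regions, in CPM after upper quartile scaling. Points are regions (blue NCD, orange FFD), horizontal lines are diet means and error bars are SD over 3 regions; only Scd1 and Mlxipl have diets that do not overlap, and FFD 1 lies above FFD 2 and FFD 3 in every panel but that of Mlxipl.

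Carbon enters the pathway through Acly, the ATP citrate lyase that releases acetyl-CoA from citrate in the cytosol (gene at chr11:100476352-100528000, GRCm38.p6). Its level was 140.0, 194 and 346 CPM in NCD 1, 2 and 3 and 211, 85.4 and 87.9 CPM in FFD 1, 2 and 3. FFD 2 and FFD 3 lay below every NCD region, while FFD 1 lay inside the NCD range, so the diets overlapped. The log2 fold change was -0.83 with an SE of 0.32 (adjusted p = 0.086).

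Acaca and Acacb encode the cytosolic and the mitochondrial-surface acetyl-CoA carboxylase, whose malonyl-CoA feeds synthesis in the first case and restrains fatty acid entry into mitochondria in the second. Acaca (chr11:84129635-84401651) read 54.5, 63.5 and 94.7 CPM in NCD and 82.3, 69.5 and 57.4 CPM in FFD regions. The regions were interleaved, and the log2 fold change was -0.04 with an SE of 0.19 (adjusted p = 0.907), a value whose sign changed with TMM scaling (0.05). Acacb (chr5:114146321-114250761) was under the detection limit in all 6 regions, at 18.0, 16.8 and 22.6 CPM in NCD and 19.4, 10.6 and 14.9 CPM in FFD. These levels rest on 34 to 72 counts, the lowest of the 10 genes, and its log2 fold change of -0.40 (SE 0.22, adjusted p = 0.219) is a difference between readings near the background.

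Fasn encodes fatty acid synthase, the multifunctional enzyme that makes palmitate, and lies at chr11:120805958-120825166. It read 169.7, 206 and 273 CPM in NCD regions and 266, 70.8 and 60.6 CPM in FFD regions. FFD 1 was level with the highest NCD region, whereas FFD 2 and FFD 3 were well below the lowest. With all regions the log2 fold change was -0.71 (SE 0.39, adjusted p = 0.211). The highest FFD region was 4.40 times the lowest, and the SD over FFD regions was 87.5% of the mean, a spread that 0.0382% of tested genes reached.

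Scd1, the desaturase that turns stearate and palmitate into oleate and palmitoleate, lies at chr19:44394450-44407709. Its level was 1536, 1595 and 2936 CPM in NCD regions and 7965, 3305 and 5890.2 CPM in FFD regions. Every FFD region was above every NCD region, although the lowest FFD region, FFD 2, was close to the highest NCD region, NCD 3. The means were 2022 ± 792 and 5720.3 ± 2335 CPM (SD, n = 3 each), and the log2 fold change was 1.50 with an SE of 0.31 (adjusted p = 0.00411). The call held in 21 of 21 alternatives, with log2 fold changes of 1.18 to 1.87 and adjusted p of 2.14e-05 to 0.0419. The deposited probe counts ran from 3160 to 20893, so counting error was small beside the spread between regions.

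Elovl6 elongates palmitate to stearate and lies at chr3:129532386-129638495. It read 77.8, 82.0 and 122 CPM in NCD regions and 134, 55.8 and 49.4 CPM in FFD regions. As for Fasn, FFD 1 was at or above the top of the NCD range, and FFD 2 and FFD 3 were under its bottom. The log2 fold change was -0.25 with an SE of 0.28 (adjusted p = 0.567).

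Me1, the cytosolic malic enzyme that supplies NADPH for the reductive steps, lies at chr9:86581363-86695914. It read 280.0, 308 and 352 CPM in NCD regions and 351, 159.9 and 183 CPM in FFD regions. FFD 1 was level with the highest NCD region, and the other FFD regions were below all NCD regions. The log2 fold change was -0.44 with an SE of 0.23 (adjusted p = 0.191).

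Srebf1 encodes SREBP-1, the membrane-bound factor whose released amino-terminal part activates lipogenic promoters, and lies at chr11:60199084-60224186. It read 269.8, 346 and 289 CPM in NCD regions and 374, 251 and 371 CPM in FFD regions. The FFD regions lay on both sides of the NCD range, and the log2 fold change was 0.14 with an SE of 0.17 (adjusted p = 0.610). Among the alternatives it passed the test in 1, scaling to the negative probes, at a log2 fold change of 0.51 (adjusted p = 0.0429).

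Mlxipl encodes ChREBP, the factor that binds carbohydrate response elements together with Mlx, and lies at chr5:135089890-135139768. It read 379, 405 and 457 CPM in NCD regions and 226, 300.2 and 307 CPM in FFD regions. All FFD regions were below all NCD regions, and FFD 1 was the lowest of the 6. The means were 414 ± 39.4 and 278 ± 45.0 CPM (SD, n = 3 each), and the log2 fold change was -0.58 with an SE of 0.16 (adjusted p = 0.0201). The direction was the same in all 21 alternatives (-0.69 to -0.18, adjusted p 0.0144 to 0.521), and the call was kept in 14. It was lost with TMM scaling (adjusted p = 0.0619), DESeq2 size factors (0.0639), the DESeq2 Wald test (0.0604), negative probe scaling (0.521), without NCD 2 (0.0769), without FFD 1 (0.0681) and when FFD 3 alone stood for FFD (0.189). Part of the hepatocyte markers moved with it. Of 10 tested hepatocyte markers 6 fell, against 4 with TMM scaling and 1 with negative probe scaling. Alb (-0.93, adjusted p = 0.0648), Ttr (-0.30, 0.338), Trf (0.02, 0.967) and Apob (0.40, 0.126) did not pass the edgeR test. The summed level of all 10 markers, to which Alb gave the most counts, was 94793 to 135506 CPM in NCD and 52048 to 83498 CPM in FFD regions. Their part in the result was not tested, and in such regions fewer hepatocytes and less RNA per hepatocyte cannot be told apart.

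Thrsp encodes Spot 14, a small protein that follows lipogenic stimuli and pairs with its paralog Mid1ip1 to act on acetyl-CoA carboxylase, and lies at chr7:97412933-97417550. It read 171, 193 and 392 CPM in NCD regions and 279, 178 and 154 CPM in FFD regions. NCD 3 alone lay above all FFD regions, and the log2 fold change of -0.31 (SE 0.27, adjusted p = 0.439) became 0.16 without NCD 3.

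**Figure D2:**
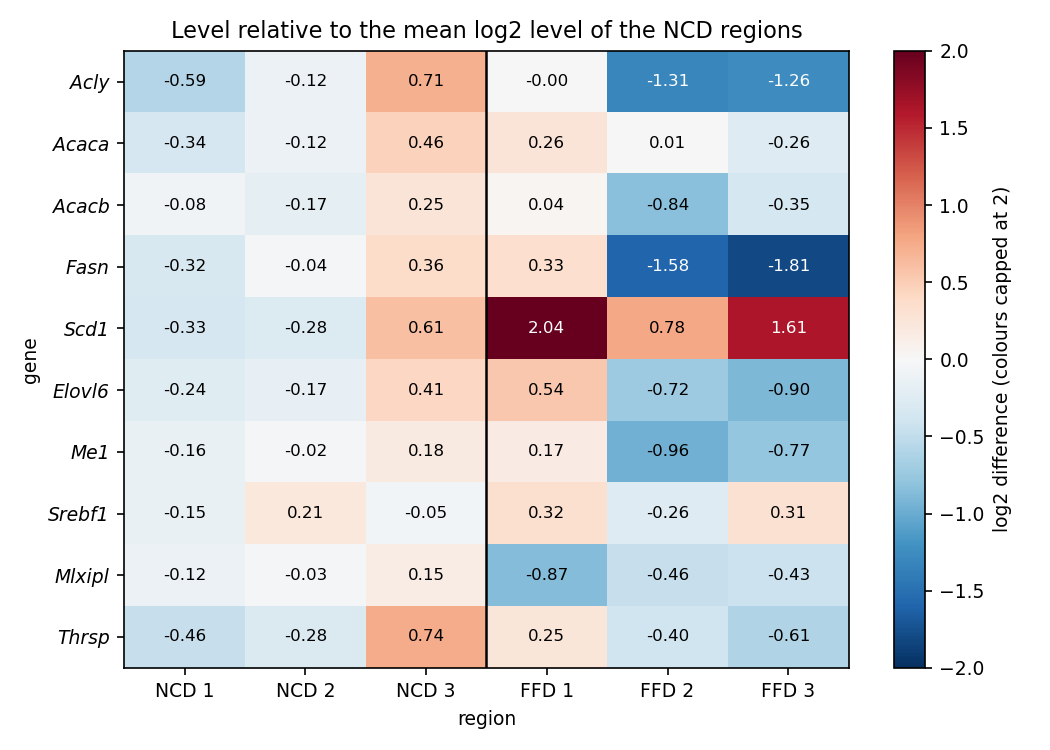
Log2 level of each lipogenic gene (rows) in each region (columns) minus the mean log2 level of the 3 NCD regions; red is higher and blue lower, with colours capped at 2. Within NCD the third column is the reddest in 9 of 10 rows, and within FFD the first column is the reddest in 9 of 10 rows, Mlxipl being the row in which FFD 1 is lowest.

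Most of the genes shared their highest region within each diet. NCD 3 was the highest NCD region in 9 of 10 members (31.8% of tested genes), Srebf1 being the exception with its highest level in NCD 2. FFD 1 was the highest FFD region in 9 of 10 (36.7% of tested genes had it highest), Mlxipl being the exception with its highest level in FFD 3. Both held in 8 of 10 members and in 11.0% of tested genes. These are counts over genes that share the same 6 regions, so they describe the regions and not independent events. In 6 members both FFD 2 and FFD 3 lay below every NCD region, as they did in 32.0% of tested genes. The 6 were Acly, Acacb, Fasn, Elovl6, Me1 and Mlxipl.

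The spread within a diet was wide for most enzymes and for Thrsp, and narrower for Mlxipl. Over all tested genes the median SD was 11.6% of the mean in NCD and 11.9% in FFD regions. Among FFD regions it was 87.5% for Fasn, 59.0% for Elovl6, 56.1% for Acly, 45.0% for Me1 and 40.8% for Scd1. At least as wide a spread was found in 0.252% of tested genes for Elovl6, 0.321% for Acly, 0.871% for Me1 and 1.28% for Scd1. Among NCD regions Thrsp (48.4%), Acly (47.2%) and Scd1 (39.2%) were widest, values that 0.191%, 0.221% and 0.473% of tested genes reached. It was 9.52% in NCD and 16.2% in FFD regions for Mlxipl and 13.1% and 21.1% for Srebf1, values that 61.7% and 29.5% of tested genes reached for Mlxipl and 42.0% and 15.3% for Srebf1. Acaca in FFD (17.9%) and Me1 in NCD regions (11.7%) were narrower than Srebf1.

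**Figure D3:**
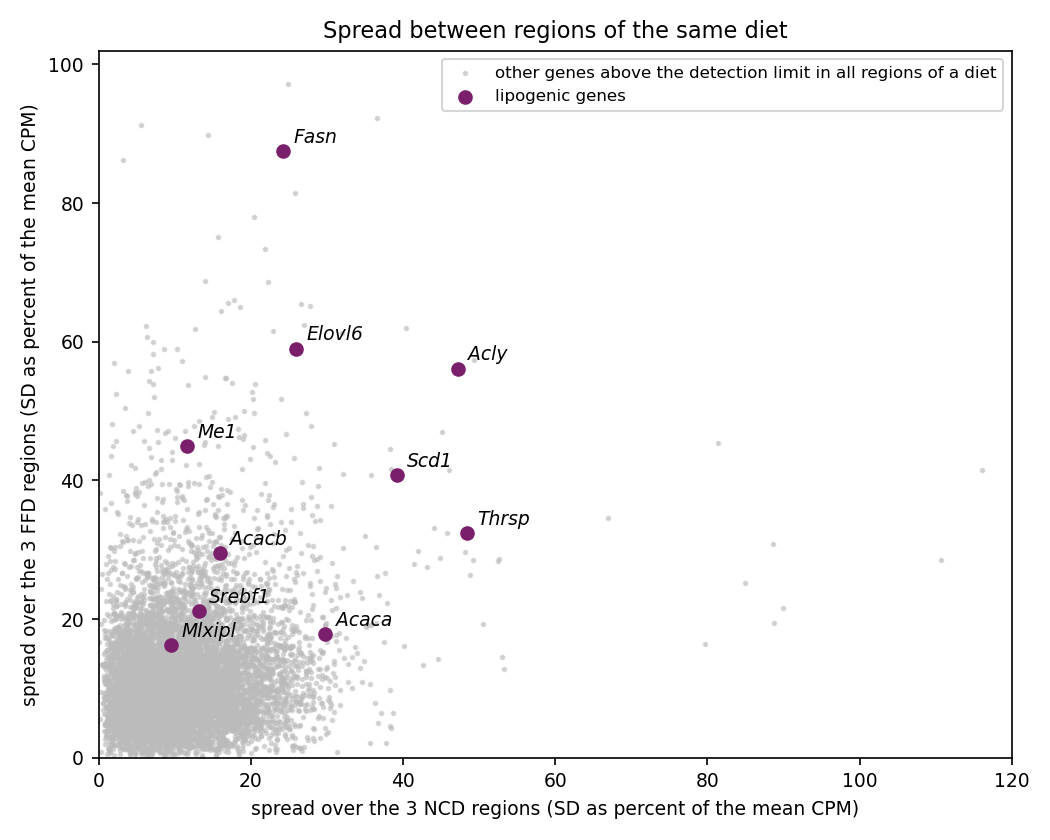
Spread between the 3 NCD regions (horizontal axis) and the 3 FFD regions (vertical axis), each the SD as a percent of the mean CPM. Grey points are genes above the detection limit in all regions of at least 1 diet and purple points are the 10 lipogenic genes; Fasn, Elovl6 and Acly sit high on the FFD axis, Thrsp, Acly and Scd1 far along the NCD axis, and Mlxipl within the main cloud.

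The calls of 4 enzymes turned on FFD 1. Without it, edgeR called Fasn lower at a log2 fold change of -1.72 (adjusted p = 5.35e-05), Acly at -1.40 (0.00505), Me1 at -0.87 (0.00272) and Elovl6 at -0.85 (0.0103). That is 4 of 10 members, against 8.44% of tested genes that fell without FFD 1. Scd1 still rose, at 1.18 (adjusted p = 0.0156), as did 4.93% of tested genes, and Mlxipl kept its sign at -0.45 but missed the threshold (adjusted p = 0.0681). With FFD 3 alone standing for FFD, assumed to vary as the NCD regions did, Fasn stood at -1.84, Acly at -1.38, Elovl6 at -0.94 and Me1 at -0.77. FFD 3 is also in the fit without FFD 1, so these values are not a separate observation. In FFD 1, 2 and 3 the summed hepatocyte markers stood at 52048, 53373 and 83498 CPM, endothelial markers at 399, 300 and 287 CPM and Kupffer cell markers at 650, 472 and 875 CPM. Macrophage markers stood at 1201, 1538 and 950 CPM and stellate cell markers at 1242, 1151 and 705 CPM. FFD 1 was thus close to FFD 2 in hepatocyte and stellate cell markers and above both other FFD regions in endothelial markers, and the part of these cells in the result was not tested. Leaving out FFD 1 was chosen with earlier results of these data known, and nothing in the labels sets that region apart.

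**Figure D4:**
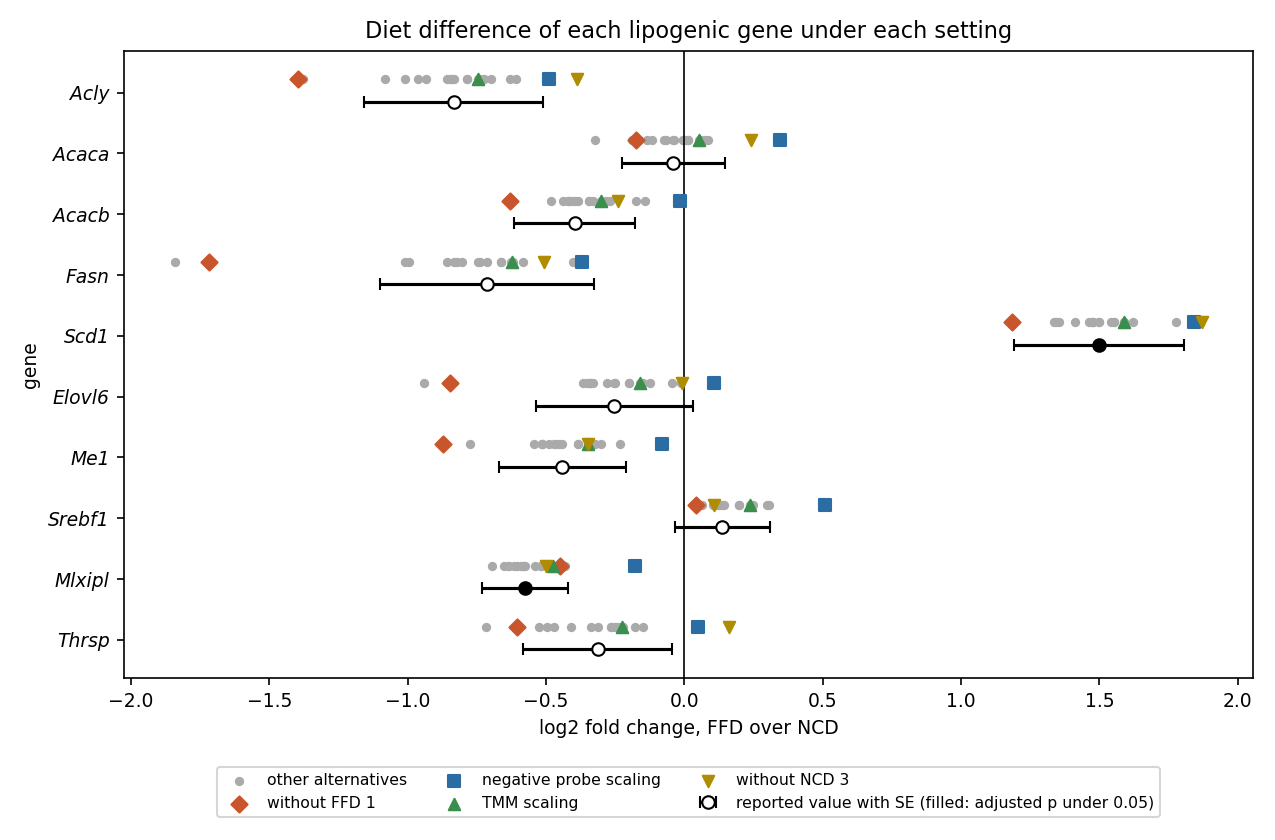
Log2 fold change of FFD over NCD for each lipogenic gene. Circles with bars are the reported values with their SE, filled where the adjusted p is under 0.05. The small marks above each are the 21 alternatives (20 for Acacb), with TMM scaling, negative probe scaling, and leaving out FFD 1 or NCD 3 marked. Scd1 lies above 1 throughout, Mlxipl below 0 throughout, and Fasn, Acly, Me1 and Elovl6 move furthest down without FFD 1.

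Scd1 also changed in its weight among the 10 genes. Its counts were 50.7 ± 4.48% of all member counts in NCD and 78.7 ± 4.45% in FFD regions (SD, n = 3 each), a share that no scaling between regions alters. The diets did not overlap, and the two-sided exact permutation test gave p = 0.1, the smallest possible here (0.12 after adjustment over 6 region measures). This measure was chosen after values were seen. The ratio of Scd1 to Fasn counts was 9.05, 7.74 and 10.8 in NCD and 29.9, 46.7 and 97.2 in FFD regions, so that every FFD region was above every NCD region, FFD 1 included. All 10 genes together took 0.375 ± 0.0941% of counts in NCD and 0.745 ± 0.283% in FFD regions, a difference of 0.370 percentage points (exact permutation p = 0.1). Without Scd1 the shares were 0.183 ± 0.0300% and 0.153 ± 0.0451%, a difference of -0.0297 percentage points (exact permutation p = 0.3).

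RefSeq promoter windows of GRCm38.p6 were matched for 9 of the 10 genes, all but Scd1, with 13 start sites in all. All windows of Acaca, Acacb, Fasn and Srebf1 lie inside the gene spans given above, so they precede internal starts and not the outermost one. Those of Mlxipl are shown as the windows of a called gene, with the letters of factors that read lipogenic promoters. Mlxipl has 2 starts in the table, 17001 bases apart. As background, transcription from the upstream start gives the shorter and more active ChREBP form, which ChREBP itself switches on, and the downstream start gives the form found in most cells. The sources used here do not say which form the Mlxipl probe binds, so the fall is of the summed reading of whatever forms it detects. The windows below hold the 250 bases before each start, 5′ to 3′ on the gene's strand, with letters of searched motifs in capitals. Fasn is added for its spread between FFD regions, a choice made after values were seen.
Mlxipl upstream start, chr5:135089640-135089889, plus strand: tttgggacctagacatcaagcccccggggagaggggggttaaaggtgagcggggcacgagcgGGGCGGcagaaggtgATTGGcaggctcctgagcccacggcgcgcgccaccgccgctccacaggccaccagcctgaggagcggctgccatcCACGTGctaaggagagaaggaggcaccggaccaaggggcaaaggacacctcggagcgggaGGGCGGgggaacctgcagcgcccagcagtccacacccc
Mlxipl downstream start, chr5:135106641-135106890, plus strand: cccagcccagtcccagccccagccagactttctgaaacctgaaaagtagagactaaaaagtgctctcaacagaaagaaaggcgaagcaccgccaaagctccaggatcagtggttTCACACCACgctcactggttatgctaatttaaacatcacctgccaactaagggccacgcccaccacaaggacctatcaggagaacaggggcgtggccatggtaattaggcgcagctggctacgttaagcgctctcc
Fasn, chr11:120824548-120824797, minus strand: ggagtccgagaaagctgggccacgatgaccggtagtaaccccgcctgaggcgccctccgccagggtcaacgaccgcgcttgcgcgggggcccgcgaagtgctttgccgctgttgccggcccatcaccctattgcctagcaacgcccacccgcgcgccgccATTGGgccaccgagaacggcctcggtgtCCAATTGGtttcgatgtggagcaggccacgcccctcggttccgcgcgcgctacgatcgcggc

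The motifs searched on both strands were the sterol regulatory element TCACNCCAC (the letters SREBP binds in the low-density lipoprotein receptor promoter), the E-box CACGTG, the CCAAT box bound by NF-Y and the GC box GGGCGG bound by Sp1. The upstream Mlxipl window held an E-box at -98 to -93, counted from the base before the start as -1, a CCAAT box on the opposite strand at -173 to -169, and GC boxes at -188 to -183 and -38 to -33. The downstream Mlxipl window held the sterol regulatory element letters TCACACCAC at -136 to -128. The Fasn window held 3 CCAAT boxes, at -90 to -86, -62 to -58 and -59 to -55, of which the last 2 share letters on opposite strands. Over all 32851 starts of the table, windows of the same length held the sterol regulatory element in 1.05%, the E-box in 6.02%, the CCAAT box in 33.8% and the GC box in 32.7%. Among the 13 starts of the lipogenic genes, 1 held the sterol regulatory element, 1 the E-box, 7 a CCAAT box and 5 a GC box. A match describes letters in the window and says nothing of binding in these livers.

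The genes around the pathway included calls in both directions. Over 10 lists of 132 tested genes, 15 rose and 25 fell with a median log2 fold change of -0.02, beside -0.11 for all tested genes. The counts of these lists, and of each list below, stand against 5.94% of all tested genes that rose and 11.1% that fell. Of these 40 called genes, 17 were called in every alternative. The lists were chosen with earlier results of these data known, and with TMM scaling the counts were 23 and 17.

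Among genes that supply acetyl-CoA and citrate, 4 of 14 rose and 2 fell (median log2 fold change 0.19). Pcx, the pyruvate carboxylase that makes oxaloacetate (0.91, SE 0.18, adjusted p = 0.00307), and Mpc1, a subunit of the mitochondrial pyruvate carrier (0.75, SE 0.15, adjusted p = 0.00396), rose in every alternative. Acss2, which makes cytosolic acetyl-CoA from acetate and is itself a SREBP target, fell by 1.26 on the log2 scale (SE 0.26, adjusted p = 0.0045), a call not kept by the DESeq2 Wald test or edgeR's robust option. Its level was 85.1, 88.7 and 181 CPM in NCD and 68.6, 41.5 and 39.7 CPM in FFD regions, without overlap. Slc25a10, the mitochondrial dicarboxylate carrier, rose by 0.56 (SE 0.14, adjusted p = 0.0133), and lost the call without NCD 1 or NCD 2 (adjusted p up to 0.0835).

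Among genes of NADPH supply, 3 of 13 rose and 1 fell (median 0.14). Idh2, the mitochondrial NADP-dependent isocitrate dehydrogenase, rose by 1.08 (SE 0.16, adjusted p = 0.000429), and Nnt, the mitochondrial transhydrogenase, by 0.57 (SE 0.13, adjusted p = 0.00623). Pgd of the pentose phosphate pathway rose by 0.57 (SE 0.17, adjusted p = 0.0309) from a level under the detection limit in NCD regions, a call lost without NCD 1, NCD 2 or FFD 1 (adjusted p up to 0.128). Aldh1l1, a cytosolic folate enzyme that yields NADPH, fell by 0.79 (SE 0.19, adjusted p = 0.0108), a call lost with negative probe scaling and with FFD 3 alone.

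Of 12 regulators of acetyl-CoA carboxylase 2 fell (median -0.12). Mid1ip1, which promotes assembly of the carboxylase into filaments, was 85.8 ± 8.23 CPM in NCD and 45.4 ± 5.81 CPM in FFD regions and fell by 0.93 on the log2 scale (SE 0.14, adjusted p = 0.000391) in every alternative. Its paralog Thrsp did not pass the test, as given above, and the difference between the paralogs was not tested. Prkag2, a regulatory subunit of the AMP-activated kinase that phosphorylates the carboxylase, fell by 0.48 (SE 0.14, adjusted p = 0.0245). Prkag2 lost the call in 10 of 21 alternatives, among them TMM scaling and fits without NCD 1, FFD 2 or FFD 3. With 1 region left out its adjusted p reached 0.1, and over all alternatives it went higher.

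Of 11 genes of SREBP processing and stability 3 fell (median -0.19), 2 of them with TMM scaling and 1 with negative probe scaling. Insig1, which retains the SREBP escort when sterols are plentiful, was 263, 273 and 282 CPM in NCD and 164, 52.1 and 119 CPM in FFD regions. The diets did not overlap, and Insig1 fell by 1.29 on the log2 scale (SE 0.27, adjusted p = 0.00457), with the call lost under the DESeq2 Wald test and edgeR's robust option. Scap, the escort, fell by 0.77 (SE 0.15, adjusted p = 0.00334), lost with negative probe scaling and with FFD 3 alone. Srebf2, the paralog of Srebf1 that serves cholesterol synthesis, fell by 0.43 (SE 0.14, adjusted p = 0.0475), a call lost in 15 of 21 alternatives. With 1 region left out its adjusted p reached 0.177, without NCD 2, and over all alternatives it went higher. The Srebf2 call was lost without any 1 region other than FFD 1.

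The shared SREBP targets of sterol synthesis fell in 9 of 10 genes, with a median log2 fold change of -1.05. The count was 8 with TMM scaling and 7 with negative probe scaling, the DESeq2 Wald test or edgeR's robust option. With 1 region left out it ran from 7 (without NCD 3 or FFD 2) to 10 (without FFD 1). Lss lost the call in 12 alternatives, Hmgcs1 in 4 and Fdps in 2. Squalene epoxidase Sqle fell by 1.71 on the log2 scale (SE 0.24, adjusted p = 0.000268), the isomerase Idi1 fell by 1.39 (SE 0.16, adjusted p = 4.86e-05), and squalene synthase Fdft1 fell by 0.93 (SE 0.13, adjusted p = 0.000212), each in every alternative. Sqle was under the detection limit in FFD 2 (15.6 CPM) and FFD 3 (11.6 CPM). Beside them stood those members that belong to the fatty acid branch of the SREBP targets. Of these, Scd1 rose, and Fasn, Acly, Acaca and Elovl6 did not pass the test with all regions. Acss2, a SREBP target outside the members, fell as given above.

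Among 17 transcription factors of lipogenic promoters 2 rose and 4 fell (median -0.05). Pparg rose by 0.59 (SE 0.12, adjusted p = 0.00484) in every alternative, and Nfyb, a subunit of the CCAAT-binding NF-Y, fell by 0.71 (SE 0.13, adjusted p = 0.002), a call lost with negative probe scaling. Ppargc1b, a coactivator of SREBP-1, fell by 0.73 (SE 0.19, adjusted p = 0.0174). Its levels in FFD regions, 21.0, 17.8 and 16.5 CPM, were all under the detection limit. The call was lost in 8 of 20 alternatives, among them background subtraction and fits without NCD 2, NCD 3 or FFD 2. With 1 region left out the adjusted p of Ppargc1b reached 0.0849, and over all alternatives it went higher. Hnf4a, also a hepatocyte marker, fell by 0.51 (SE 0.14, adjusted p = 0.0207). Its call was lost in 12 of 21 alternatives, among them TMM scaling and fits without NCD 1, NCD 2, FFD 1 or FFD 2. The adjusted p of Hnf4a reached 0.0858 with 1 region left out, and over all alternatives it went higher. Mlx, the partner of ChREBP, stood at -0.03 on the log2 scale (SE 0.16, adjusted p = 0.918), and its sign turned in 12 of 21 alternatives.

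Among 14 ChREBP targets outside the members 1 rose and 1 fell (median 0.08), near the shares over all genes. Rgs16, a regulator of G protein signalling, rose by 1.30 (SE 0.20, adjusted p = 0.000535), and G6pc, the catalytic glucose-6-phosphatase, fell by 1.28 (SE 0.18, adjusted p = 0.000196), both in every alternative. In insulin signalling 2 of 17 rose and 1 fell (median 0.07). Pik3r1, a regulatory subunit of the insulin-activated lipid kinase, rose by 0.69 on the log2 scale (SE 0.13, adjusted p = 0.00205) in every alternative. Rictor fell by 0.53 (SE 0.15, adjusted p = 0.0277), lost in 11 of 21 alternatives, among them TMM scaling and fits without NCD 1, NCD 2 or FFD 2. With 1 region left out its adjusted p reached 0.128, and over all alternatives it went higher.

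Of 15 other desaturases and elongases 3 rose and 2 fell (median 0.01). Fads2, the desaturase of polyunsaturated fatty acids, was 358, 430 and 579 CPM in NCD and 1382, 529 and 854 CPM in FFD regions. FFD 2 lay inside the NCD range, and the rise was 1.01 (SE 0.27, adjusted p = 0.018). That call was lost in 7 alternatives, among them fits without NCD 1, NCD 2 or FFD 1 (adjusted p up to 0.0941 with 1 region left out). Scd2, the paralog of Scd1, rose by 0.68 (SE 0.16, adjusted p = 0.00999) from 18.5 to 22.3 CPM in NCD, under the detection limit, to 29.7 to 37.4 CPM in FFD regions, and missed the threshold without FFD 2 (adjusted p = 0.0586). Elovl3, an elongase of very long saturated chains, fell by 2.17 (SE 0.19, adjusted p = 3e-06) in every alternative, from a range of 48.0 to 75.7 CPM in NCD regions to levels under the detection limit. Hacd2, a dehydratase of the elongation cycle, fell by 0.49 (SE 0.13, adjusted p = 0.0223). Its call was lost in 13 of 21 alternatives, among them fits without NCD 1, NCD 2, FFD 1 or FFD 2. The adjusted p of Hacd2 reached 0.0857 with 1 region left out, and over all alternatives it went higher.

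In the separate mitochondrial pathway of fatty acid synthesis no gene of 10 passed the edgeR test (median -0.07), and at an unadjusted p under 0.05 1 was higher and 1 lower. The DESeq2 Wald test and limma voom also called 0 of the 10. The lowest p-values were those of Acsf3 (0.33, SE 0.14, adjusted p = 0.124) and Htd2 (-0.34, SE 0.16, adjusted p = 0.142).

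**Figure D5:**
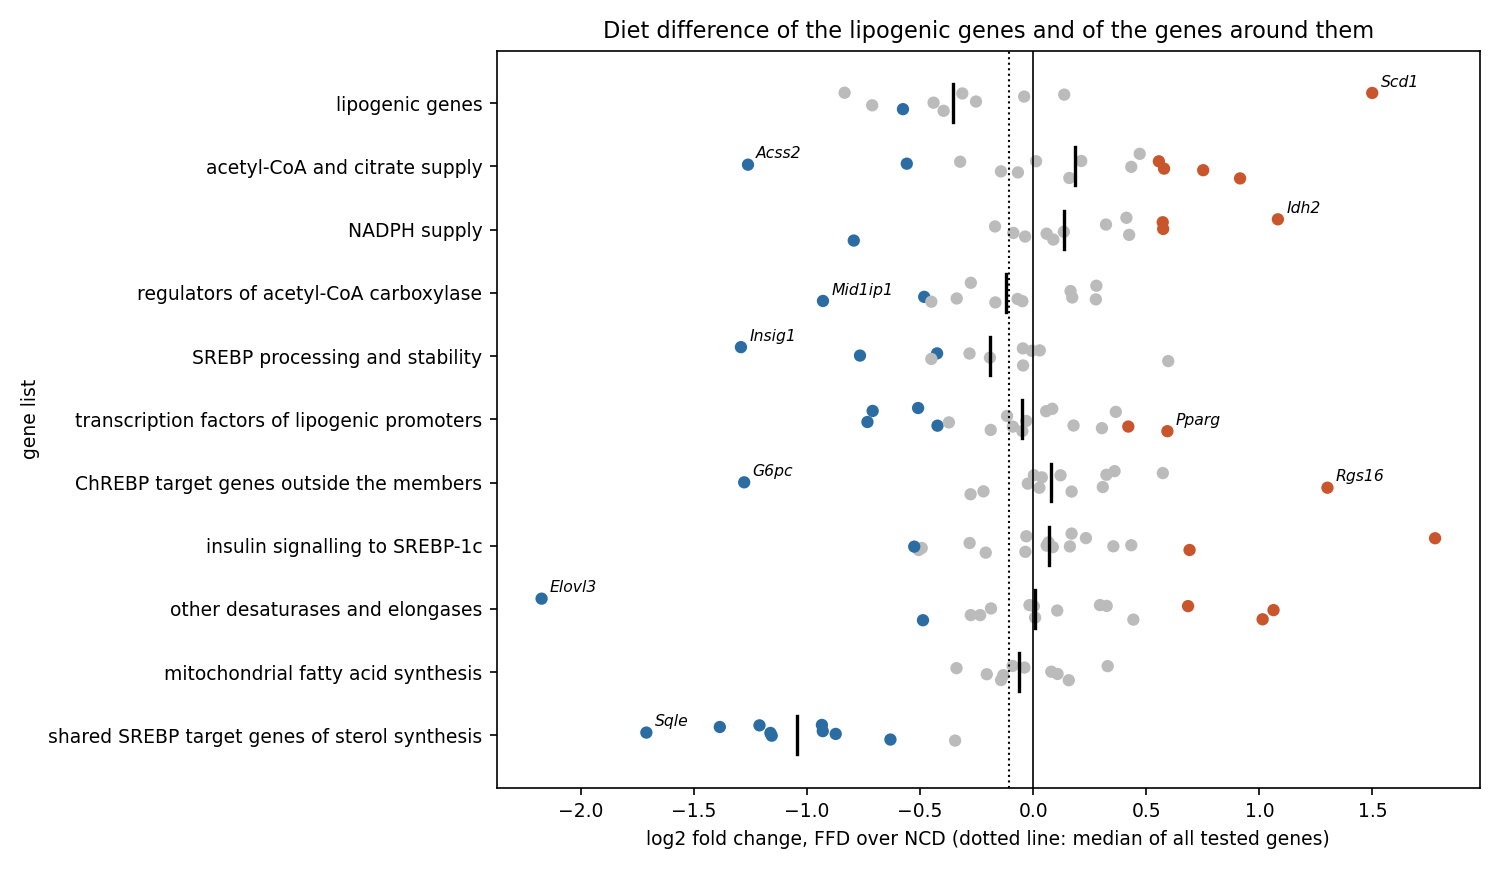
Log2 fold change of FFD over NCD for each tested gene (points) of the lipogenic genes and of 10 lists around them; orange points rose and blue points fell at an adjusted p under 0.05, grey points did not pass, short black bars are list medians and the dotted line is the median of all tested genes. Points are set off vertically for legibility; Scd1 stands apart from the other lipogenic genes on the right, and 9 of 10 sterol synthesis genes are blue.

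Other cell types changed in the same regions. Adipocytes use the same lipogenic enzymes, and of their 3 tested markers 1 fell, with a summed level of 123 to 173 CPM in NCD and 93.8 to 116 CPM in FFD regions, and Adipoq, Plin1 and Retn never above the detection limit. All 7 tested markers of monocyte-derived macrophages rose (191 to 206 CPM in NCD, 950 to 1538 in FFD) and 6 of 8 stellate cell markers did (373 to 402, 705 to 1242). Of cholangiocyte markers 1 of 3 rose (96.7 to 130, 248 to 1059), namely Spp1, which is also among the macrophage markers that rose. Without Spp1 that list summed to 58.6 to 70.7 CPM in NCD and 55.0 to 106 CPM in FFD regions, and Krt7 (-0.23) and Sox9 (0.50) did not pass the test. Of Kupffer cell markers 2 of 6 rose and 1 fell (435 to 568, 472 to 875), and of endothelial markers 1 of 4 rose and 1 fell (355 to 362, 287 to 399), with Pecam1 and Clec4g never above the limit. Of lymphocyte markers 1 of 6 fell (141 to 200, 122 to 135). The 4 neutrophil markers (99.2 to 106, 90.7 to 114) and 2 tested erythroid markers (186 to 267, 118 to 332) did not pass the edgeR test, nor the DESeq2 Wald test or limma voom, and at an unadjusted p under 0.05 edgeR had 0 and 1 of them. No marker was at 0. The part of these cells in the levels of Scd1, Mlxipl and the other lipogenic genes was not tested.

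The genes whose levels over the 6 regions ran most like those of the called members were taken from 8417 genes above the detection limit, by Pearson correlation of log2 CPM, as a description with no test. For Scd1 they were Mpdu1 (r = 0.995), which serves mannose use in glycosylation, Man2b1 (0.994), a lysosomal mannosidase, and Aga (0.992), a lysosomal amidase. For Mlxipl they were Naa60 (0.996), an acetyltransferase of the Golgi, Hipk1 (0.996), a nuclear kinase, and Sgms2 (0.996), a sphingomyelin synthase. Correlation leaves the size of a change aside. Beside 1.50 for Scd1, Mpdu1 stood at 0.43 (edgeR adjusted p = 0.0509), Man2b1 at 0.41 (0.04997) and Aga at 0.25 (0.284) on the log2 scale. Beside -0.58 for Mlxipl, Naa60 stood at -0.45 (0.0334), Hipk1 at -0.23 (0.203) and Sgms2 at -0.54 (0.0144). Over only 6 regions that share the diet contrast such values are common: 117 genes ran with Scd1 and 84 with Mlxipl at r above 0.95.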

How the data were processed

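RNA was counted in 6 Albumin-positive regions of mouse liver, 3 per diet. A no template control among the samples is not analysed here. The deposited count tables hold expected counts per target after probe quality control, and the values are whole except at 4 targets with more than 1 probe. A deposited filtered table keeps 13099 of 19963 targets by a rule not given in the sources used here. The authors' Q3 signal divides the filtered counts by each region's 75th percentile, which matched within 0.0238% when recomputed. Per the file headers, nuclei and reads are counts and saturation is a percent. Area, the deposited limit of quantitation and probes per target are other quantities per the file headers. The submitters' processing notes name GRCm38 and edgeR, with neither role nor version.

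The 13095 genes of the filtered table were fitted after rounding, without the 4 targets that are not genes (all 12 such targets of the full table hold 0.0145 to 0.0192% of counts). The test was edgeR 4.0.16 quasi-likelihood under R 4.3.3, with upper quartile scaling (75th percentile), diet as the only term, all 6 regions and Benjamini-Hochberg adjustment over all genes at 0.05, two-sided. The biological coefficient of variation was 12.0%. SE is the absolute log2 fold change over the square root of F, and fold changes are FFD over NCD. Depth was 2069102 to 3491371 counts per region, which sets counting error. Alternatives were other scalings, DESeq2 1.42.0, limma 3.58.1 on the Q3 signal (pseudocounts 1 and 10) and with voom, edgeR's robust option, other filters, background subtraction, and regions left out or summed. All 10 members are named. From each list the called genes with the lowest p are named, up to 4, or 2 as values where none passed, and Scd2, Mid1ip1, Srebf2, Mlx and Alb in any case. Some genes that this rule names are not reported here. The 3 nearest patterns are given for called members. The members, the 10 pathway lists and the 10 marker lists were chosen with earlier results of these data known.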

Additional observations from a re-analysis of the deposited data

How the results depend on the processing

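Over 21 alternatives the number of members that rose was 1 except with negative probe scaling, where it was 2. The number that fell, 1 as reported, was 0 with TMM scaling, DESeq2 size factors, negative probe scaling and the DESeq2 Wald test. It ran from 0 (without NCD 2) to 4 (without FFD 1) when 1 region was left out. At an unadjusted p under 0.05 those counts of 0 became 2, 2, 0, 1 and, without NCD 2, 2, and limma voom had 1 lower at the adjusted threshold. Genes of the other lists that rose numbered 15 as reported, 23 with TMM scaling, DESeq2 size factors and total counts, 50 with negative probe scaling and 9 with NCD 1 and NCD 2 summed, and 9 (without NCD 1 or NCD 2) to 20 with 1 region left out. Those that fell numbered 25 as reported, 12 with negative probe scaling, 13 with the DESeq2 Wald test and 14 with FFD 3 alone, and 16 (without FFD 2) to 24 with 1 region left out. The member share of counts was 0.220 to 0.501 percentage points higher in FFD with 1 region left out, and the difference was -0.0297 without Scd1. The cause of these shifts was not tested. The log2 fold change of Acaca turned to 0.0547 with TMM scaling, 0.0539 with DESeq2 size factors, 0.0868 with total counts, 0.34 with negative probe scaling, 0.0612 with the DESeq2 Wald test, 0.000921 with limma on the Q3 signal at pseudocount 1 and 0.0141 with no filter or filterByExpr, and ran from -0.19 to 0.24 with 1 region left out. Negative probe scaling also turned Elovl6 (0.11) and Thrsp (0.04997), and Thrsp ran from -0.61 to 0.16 with 1 region left out. No paired analysis was possible because the numbers 1 to 3 used here within each diet only name regions. The sample labels count 1 to 6 over the series and tie no NCD region to an FFD region.

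The groups of 3 regions, not tied to mice by the labels, limit every comparison. Each gene was read by 1 probe, Acacb lay under the detection limit in all 6 regions, and transcript forms of Srebf1 and Mlxipl were not told apart. Count sums above the deduplicated reads were found in FFD regions alone, and their part in the results was not tested.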
